A study of Caenorhabditis elegans with 2 samples.

Results

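The Hedgehog-related and patched-related genes of Caenorhabditis elegans were examined for occupancy by the transcription factor FOS-1. The members are the protein-coding genes whose Ensembl name is wrt-, grd-, grl-, hog-, ptr- or ptc- followed by a number, and 84 of 19973 protein-coding genes carry such a name. Of these, 58 are ligand-like (10 wrt, 16 grd, 31 grl and hog-1) and 26 are patched-like (24 ptr genes, ptc-1 and ptc-3). They are spread over all chromosomes, with 32 of the 84 on chromosome V and between 7 and 13 on each of the others. FOS-1 had been mapped by chromatin immunoprecipitation and sequencing (ChIP-seq) in L2 larvae of strain OP304, in 2 biological replicates that form 1 group. Both replicates carry the mutation unc-119(ed3) on chromosome III and the integrated transgene wgIs304, which encodes FOS-1 tagged with eGFP, so the data come from a single transgenic strain. Whole animals of mixed sex were used, and a site bound weakly in many cells and one bound strongly in few cells cannot be told apart. Only peak lists were used, so the design holds no comparison between treatments, and the comparisons below are between ligand-like genes, patched-like genes and all protein-coding genes, as counts with no test.

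Hedgehog proteins are secreted ligands that in flies and vertebrates bind the membrane protein Patched and thereby release the signal transducer Smoothened. C. elegans lacks a canonical Hedgehog and Smoothened, but has large families of proteins related to the ligand and to the receptor. The WRT (warthog), GRD (groundhog) and GRL (ground-like) proteins are predicted to be secreted and are named for their amino-terminal domains. Some of them, and HOG-1, carry the Hog domain, which in Hedgehog cleaves the precursor. PTC proteins are the closest worm relatives of Patched and PTR proteins are more distant, and both have a sterol-sensing domain. Several of these genes act in the epidermis, where loss of function gives defects in moulting and in the cuticle. FOS-1 is the worm member of the Fos family of basic leucine zipper proteins, which with Jun partners bind the AP-1 site.

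Sequences around the summits of 5 members show what lies under the FOS-1 peaks. Each stretch is centred on the summit, the position of highest enrichment in a peak, and runs 50 bases to either side (for grl-26 it is limited to the 91 bases of the intron that holds the summit). Each is written along the strand of its gene, from the RefSeq WBcel235 genome, which is build ce11. Capitals mark the GATA site, bound by GATA factors (A or T, then GATA, then A or G, on either strand), its extended form TGATAAG, and the repeat GAGAGAG, which overlaps the GATA site in ptr-15.
ptc-1 (chrII:7892363-7892463, plus strand): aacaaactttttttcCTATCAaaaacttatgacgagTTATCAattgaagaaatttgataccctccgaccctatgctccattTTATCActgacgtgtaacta
ptr-24 (chrX:13341963-13342063, plus strand): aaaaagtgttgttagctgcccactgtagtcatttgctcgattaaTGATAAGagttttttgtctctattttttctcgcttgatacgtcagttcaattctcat
ptr-15 (chrV:6970261-6970361, minus strand): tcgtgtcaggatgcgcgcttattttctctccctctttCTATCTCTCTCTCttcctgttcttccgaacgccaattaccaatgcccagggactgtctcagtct
wrt-3 (chrIV:9477642-9477742, minus strand): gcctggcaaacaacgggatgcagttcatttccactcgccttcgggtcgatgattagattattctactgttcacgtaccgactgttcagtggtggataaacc
grl-26 (chrIV:322596-322686, minus strand): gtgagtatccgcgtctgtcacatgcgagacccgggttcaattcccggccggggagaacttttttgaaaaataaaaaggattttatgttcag
The 3 stretches of patched-like genes each hold a GATA site, and those of wrt-3 and grl-26 hold none of the 8 patterns searched. The summits of wrt-3 and grl-26 lie on a snoRNA and a tRNA gene. The ligand-like peaks of wrt-10 and wrt-7, not shown, do have a GATA site within 50 bases of the summit. ptc-1 has 3 GATA sites, ptr-24 the extended form, and ptr-15 a single site. Over the 101 bases around the summit, GC content was 48.5% at wrt-3, 44.6% at grl-26, 49.5% at ptr-15, 33.7% at ptc-1 and 34.7% at ptr-24, against a median of 40.6% over the summits in promoters of all protein-coding genes.

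Few ligand-like genes had an occupied promoter, and 3 of those 4 were wrt genes. The IDR list comes from the irreproducible discovery rate procedure, which compares how the replicates rank their calls. It holds the 7446 calls of highest signal from the pooled replicates, so a peak in it need not have a call in each replicate. The promoter window covers the 1000 bp before and the 250 bp after each start of a protein-coding transcript. A gene was called occupied when it had a summit of the IDR list in its promoter window. This held for 4 of 58 ligand-like genes or 6.90% (Wilson 95% interval 2.71 to 16.4) and for 4 of 26 patched-like genes or 15.4% (6.15 to 33.5), against 4681 of 19973 protein-coding genes or 23.4%. The interval of the ligand-like genes lies below the share of all genes and that of the patched-like genes includes it. Within the ligands, 3 of 10 wrt genes or 30% were called (wrt-3, wrt-7 and wrt-10), which is not below the share of all genes. Called were also 1 of 31 grl genes or 3.23% (grl-26), but 0 of 16 grd genes and not hog-1. On the patched side, ptr-15, ptr-21 and ptr-24 were called among 24 ptr genes, and ptc-1 was called while ptc-3 was not. Members share ancestry and some are neighbours, so they are not independent observations.

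**Figure D1:**
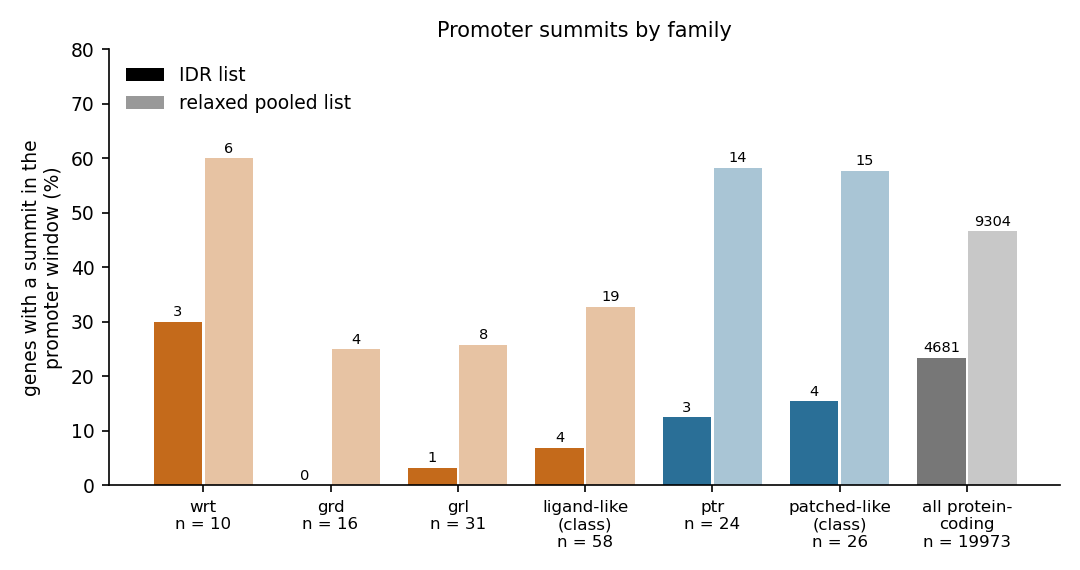
Percent of genes with a summit in the promoter window, by family and class, with the number of such genes above each bar; full bars stand for the IDR list and pale bars for the relaxed list of pooled replicates, and hog-1 and the ptc genes are counted within their classes. The IDR bars of ligand-like (6.90%) and patched-like genes (15.4%) are lower than that of all protein-coding genes (23.4%), and the pale bar of patched-like genes (57.7%) is higher than that of all genes (46.6%).

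With weaker calls included, the shares of the classes lay on either side of that of all genes. A relaxed list of the pooled replicates, which keeps calls that were input for the IDR procedure, holds 28259 calls, of which the IDR list is the 7446 of highest signal. A pooled relaxed call lay in the window of 19 ligand-like genes (32.8%, Wilson 95% interval 22.1 to 45.6) and of 15 patched-like genes (57.7%, 38.9 to 74.5), against 46.6% of all protein-coding genes. The interval of the patched-like genes includes the share of all genes, and that of the ligand-like genes ends just below it (45.6 against 46.6). Such intervals take related and neighbouring genes as independent and are not a test. A single start, and so a single window, was annotated for 87.9% of ligand-like and 61.5% of patched-like genes, against 73.7% of all genes, and the part of window number in these shares was not tested. Of the genes with such a call, 21.1% of ligand-like and 26.7% of patched-like genes had an IDR summit, against 50.3% of all protein-coding genes. The strongest call per gene had a median signal of 15.6 in ligand-like and 18.995 in patched-like genes, against 34.2 over all genes with a call. The calls of both classes were thus weaker in the median than those of all genes. The wrt family did not share this, with a call at 6 of 10 genes (60%) and a median of 34.1. The grd genes had a median of 10.2 (4 genes with a call) and the grl genes one of 13.99 (8 genes). In the relaxed lists of the replicates, a call lay at 20 ligand-like genes (34.5%) and 18 patched-like genes (69.2%), against 47.4% of all genes, in replicate 1. Replicate 2 had 23 (39.7%) and 15 (57.7%), against 47.6%, so the order of ligand-like, all and patched-like genes was the same in both replicates.

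**Figure D2:**
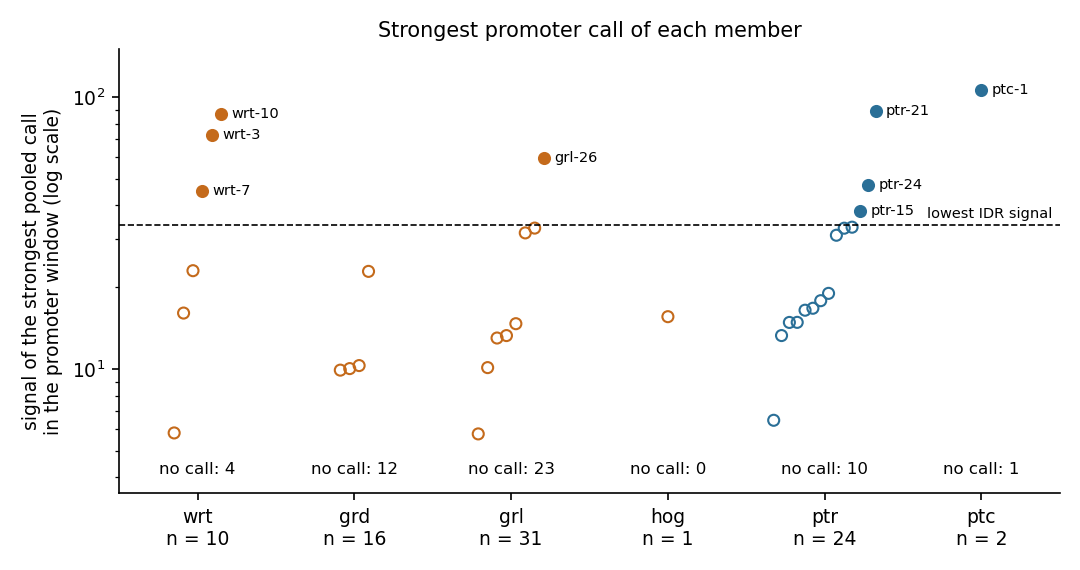
Signal of the strongest pooled call in the promoter window of each member (log axis), by family; filled points are genes with an IDR summit, open points have a relaxed call alone, and the number with no call stands at the bottom. The 8 filled points lie between 38.2 (ptr-15) and 105.9 (ptc-1), above the dashed line at the lowest IDR signal of 33.9, and 12 of 16 grd and 23 of 31 grl genes have no call.

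Among receptors, ptc-1 had the strongest promoter peak of all members. PTC-1 is a Patched homologue required for cytokinesis in the germ line. Its peak (chrII:7892328-7892479, intergenic) had a pooled signal of 105.9 and rank 1468 of 7446, with the summit 809 bp upstream of the start. Replicate 1 gave it a signal of 76.4 (rank 1327 of 29339 calls) and replicate 2 a signal of 28.8 (rank 2177 of 28938). The signal is the enrichment value of the authors' peak caller and is not normalized between lists, so ranks are given beside it. Both replicates thus placed the ptc-1 peak in the upper part of their lists. The other receptor, ptc-3, encodes an essential protein that acts in the epidermis and intestine and in sterol balance. No call of any of the 4 lists lay in its window, and its nearest IDR summit was 3698 bp from a start.

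The 3 ptr genes with a peak included the weakest of the 8 member peaks and the one next in signal to ptc-1. The ptr-21 peak (chrI:550369-550712, summit 155 bp upstream) had a signal of 88.8 and rank 2157. Its signals were 71.2 in replicate 1 (rank 1588) and 19.7 in replicate 2 (rank 3974), so it stood higher in the first. PTR-24 is known to act with the ligand-like protein GRL-21 and the nuclear receptor NHR-25 in the control of fat storage. The ptr-24 peak (chrX:13341841-13342184) lay in an intron, 168 bp upstream of an internal start at position 13342181, with a signal of 47.5 and rank 5444. Replicate 1 had it at 39.6 (rank 4382) and replicate 2 at 11.7 (rank 7169). The gene holds another intronic IDR summit (signal 48.2), 1456 bp downstream of its outer start and outside the window. The weakest member peak was that of ptr-15 (chrV:6970139-6970482, summit 311 bp upstream), at a signal of 38.2 and rank 6704. It had 29.6 in replicate 1 (rank 6107) and 8.81 in replicate 2 (rank 9308), which is outside the 7446 strongest calls of that replicate.

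Of the ligand-like peaks, those of wrt-10 and wrt-3 were among the 3723 strongest of the IDR list. The wrt-10 peak (chrII:7534964-7535307) had a signal of 86.8 and rank 2262, with 56.6 in replicate 1 (rank 2580) and 25.7 in replicate 2 (rank 2644). Its summit lay 573 bp upstream of the wrt-10 start but 130 bp from the start of the divergent gene ZK1290.13, in a non-coding exon of that gene. Both genes have the summit in their window, and the peak can be assigned to either. It was the only member peak with another protein-coding gene in this position, while over all protein-coding genes 81.5% of gene and summit pairs had the gene's own start as the nearest.

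The peaks of wrt-3 and grl-26 had their summits on genes of short structural RNAs. The wrt-3 peak (chrIV:9477520-9477863) had a signal of 72.6 and rank 3142, with 49.8 in replicate 1 (rank 3169) and 22.7 in replicate 2 (rank 3221). Its summit, 236 bp upstream of the start, fell on the snoRNA gene F38E11.14 (chrIV:9477629-9477699), within an intron of cng-3, a gene of a cyclic nucleotide-gated channel. The grl-26 peak (chrIV:322466-322809) had a signal of 59.95 and rank 4120, with 37.8 in replicate 1 (rank 4630) and 21.2 in replicate 2 (rank 3582). Its summit, 176 bp downstream of the start, fell on a tRNA gene (chrIV:322632-322703) that reaches from the untranslated first exon of grl-26 into the intron after it. Over all 4222 IDR summits in promoter windows, 47 or 1.11% lay on a tRNA, snoRNA, snRNA or rRNA gene, and 114 peaks or 2.70% contained or touched one. Without such peaks, 2 of 58 ligand-like genes and 4 of 26 patched-like genes remained, against 22.9% of all protein-coding genes. Whether the short RNA genes or the member genes account for these 2 peaks was not tested.

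The wrt-7 peak had an overlapping call in the list of replicate 2 alone. It was intergenic, with the summit 660 bp upstream, a pooled signal of 45.1 and rank 5715. Replicate 2 gave it a signal of 14.9 (rank 5591), whereas no replicate 1 call overlapped it and the nearest one in that list lay 9177 bp away. Such a gap was rare, since 12 of the 4222 IDR summits in promoter windows (0.284%) had no overlapping call in replicate 1 and 31 (0.734%) had none in replicate 2. Only peak lists were used, so whether replicate 1 lacked enrichment at wrt-7 or only a listed call was not tested. The other 7 member peaks were called in both replicates, with summits at most 58 bp from the pooled one. Their ratio of replicate 1 to replicate 2 signal was between 1.78 and 3.61 with a median of 2.65, against a median of 2.19 over all promoter summits. Of the 8 peaks, 6 ranked within the top 7446 in each replicate, the exceptions being wrt-7 and ptr-15, and over all promoter summits 80.6% did.

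**Figure D3:**
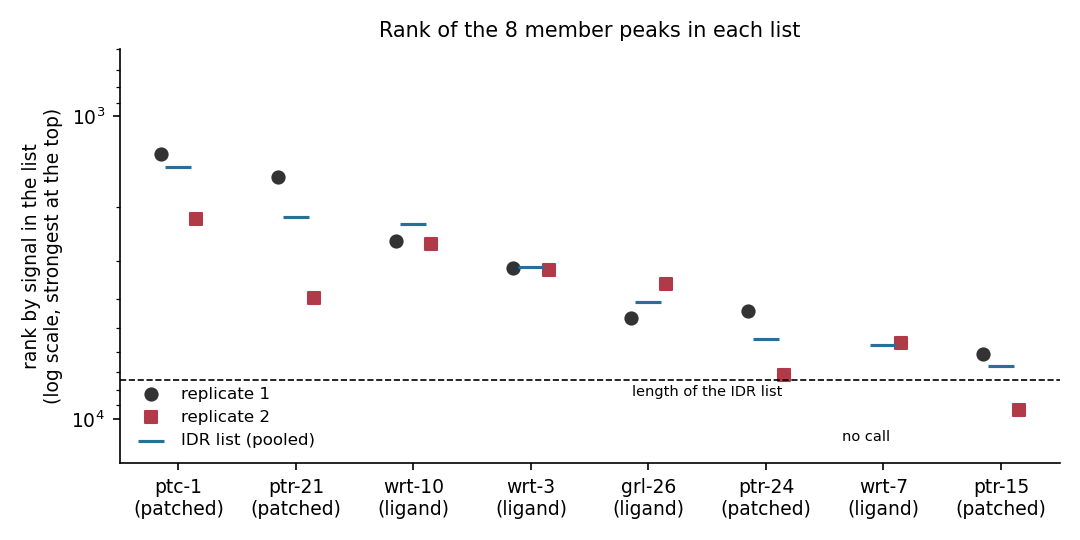
Rank by signal (log axis, strongest at the top) of the 8 member peaks in the list of replicate 1, the list of replicate 2 and the IDR list, with the genes in order of the pooled signal; the dashed line is at 7446, the length of the IDR list. The ranks of wrt-10 and wrt-3 differ little between replicates, ptr-21 is at 1588 in replicate 1 and 3974 in replicate 2, and wrt-7 has no call in replicate 1.

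Among genes with an IDR summit, member peaks had medians of strength near that of all genes. The IDR list is itself a cut on signal, so this leaves out the weaker calls described above. The median signal of the strongest promoter peak was 66.3 in the 4 ligand-like genes and 68.2 in the 4 patched-like genes, against 67.6 over all genes with a peak. With so few genes the patched-like median was unstable. It was 47.5 with 500 or 2000 bp upstream and 88.8 with the outermost start alone, while the ligand-like median stayed at 66.3 in these settings. Of the 8 peaks, 4 were among the 3723 strongest IDR peaks, against 51.6% of all promoter summits. Their summits lay upstream of the start in 7 of 8, against 92.1% of all promoter summits, at a median distance of 273.5 bp, against 223 bp.

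GATA sites lay at every patched-like summit and at some of the ligand-like ones. Within 50 bp of the summit, 4 of 4 patched-like peaks (ptc-1, ptr-21, ptr-24 and ptr-15) and 2 of 4 ligand-like peaks (wrt-10 and wrt-7) had a GATA site, against 50% of the 4222 promoter summits and 21.0% of flanking windows of the same width 300 bp away. No site of wrt-10 or wrt-7 fitted whole within 25 bp of the summit, whereas each patched-like summit had at least 1 that did. The extended site TGATAAG was found at the ptr-24 summit alone, against 21.5% of promoter summits and 1.72% of flanks. The GAGA repeat lay at the summits of wrt-10 and ptr-15, against 8.93% of promoter summits. With 4 summits a class, these counts describe single genes.

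The AP-1 site TGACTCA or TGAGTCA lay within 50 bp of 0 of the 8 member summits, against 3.51% of promoter summits and 0.995% of flanks. Farther out in the peaks, it was found 51 bp from the wrt-10 summit, 135 bp from that of ptr-15 and 139 bp from that of ptr-21. Thus 3 of the 8 member peaks contain one, against 302 of 4222 promoter peaks or 7.15%. With 8 peaks this count describes single genes, and the wrt-10 peak is nearer to the start of ZK1290.13. The promoter windows of grl-12, wrt-2, ptr-1 and ptr-18 also hold an AP-1 site, and none of these 4 sites lies in a pooled relaxed call, although a call of replicate 1 alone covers that of wrt-2. wrt-10 has a second AP-1 site, not shown, which lies 198 bp from its summit, outside the peak and outside any pooled or replicate call. The sites are shown with 10 or 20 bases to either side along the gene's strand (RefSeq WBcel235), with the AP-1 site in capitals, to set those inside a peak (ptr-15, wrt-10) beside those outside any pooled call.
ptr-15 (chrV:6970423-6970469, minus strand): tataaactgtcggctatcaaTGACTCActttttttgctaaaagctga
ptr-1 (chrV:9181843-9181889, minus strand): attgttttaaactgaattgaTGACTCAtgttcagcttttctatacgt
ptr-18 (chrII:12965031-12965077, plus strand): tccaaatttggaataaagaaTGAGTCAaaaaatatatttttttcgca
wrt-10 (chrII:7535174-7535200, minus strand): aggcactcttTGAGTCAtcacaaaaag
wrt-2 (chrX:3095134-3095180, minus strand): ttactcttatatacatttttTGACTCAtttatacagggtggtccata
grl-12 (chrV:8637392-8637418, minus strand): ccaataataaTGAGTCAacctgttcca
They lie 446 bp (ptr-15), 147 bp (ptr-1), 492 bp (ptr-18), 624 bp (wrt-10), 808 bp (wrt-2) and 398 bp (grl-12) upstream of the gene's outermost start. Counted over windows around that start, an AP-1 site was present in 3 of 58 ligand-like genes (5.17%) and 4 of 26 patched-like genes (15.4%), against 12.1% of all protein-coding genes. The extended GATA site was present in 27.6% of ligand-like and 15.4% of patched-like windows, against 24.2% of all. The CRE site TGACGTCA was present in 12.1% of ligand-like and 3.85% of patched-like windows, against 6.10% of all, and none of the 7 distinct member sites, of which grl-29 and grl-30 share 1, lay in a pooled relaxed call. The ligand-like share includes grl-13, grl-29 and grl-30, whose sites lie in alike stretches, shown at the end, with a spacing found 529 times in the genome. The half-site AGGTCA of nuclear receptors was present in 36.2% of ligand-like and 34.6% of patched-like windows, against 27.6% of all. A match to such a pattern is a description of the letters and not evidence of a bound factor.

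Genes without an IDR peak held weaker calls with a wide range of signal. Of the ligand-like genes, 15 had a relaxed call alone (signal 5.78 to 33.0, median 13.3), and 39 had no pooled call. Of the patched-like genes, 11 had a relaxed call alone (6.49 to 33.3, median 16.7), and 11 had none. The strongest of these lay just below the lowest IDR signal of 33.9. The ligand-like gene grl-15 had a pooled signal of 33.0 (rank 7631), with 26.8 in replicate 1 and 4.81 in replicate 2. grl-4 followed with 31.7 (rank 7894), with 27.05 in replicate 1 and 7.29 in replicate 2. Both stood higher in replicate 1, where they were among the 7446 strongest calls (ranks 6693 and 6640). wrt-1 had 23.01, with 18.5 in replicate 1 and no overlapping call in replicate 2. By contrast grd-1, the grd gene with the strongest call, had 22.9 pooled, with 10.5 in replicate 1 and 12.4 in replicate 2, where its rank was 6808. hog-1 had a pooled signal of 15.6 (rank 13053), with 10.3 in replicate 1 and 7.94 in replicate 2, at 423 bp upstream of a start.

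Of the patched-like genes with weak calls, ptr-1 had a pooled signal of 33.3 (rank 7576), with 22.8 in replicate 1 and 9.55 in replicate 2. ptr-2 had 33.0 (rank 7635), with 21.8 in replicate 1 and 10.98 in replicate 2. ptr-4, whose product takes part in assembly of the apical extracellular matrix, had 31.1 (rank 8017), with 19.4 in replicate 1 and 10.7 in replicate 2. These 3 had replicate ranks between 7653 and 8783, similar in both lists, and lay just below the IDR list. The fourth, ptr-13, had 18.995 (rank 11427), with 9.10 in replicate 1 and 8.47 in replicate 2. grl-21, the ligand-like gene known to act with ptr-24, had a pooled signal of 13.02, with 8.33 in replicate 1 and 4.05 in replicate 2.

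Several members had strong IDR peaks just outside the promoter window, most of them nearer to another gene. Upstream of grl-18, a peak with a signal of 133.1 lay 1529 bp from the start and nearest to the start of T05C3.6. A peak with a signal of 130.1 lay 1444 bp upstream of grl-17 and nearest to slrp-1. Another, with a signal of 123.7, lay 1640 bp upstream of wrt-1 and nearest to ZK1290.5. These 3 signals exceed that of every member peak inside a window. So does a peak with a signal of 125.4 past the 3' end of wrt-5 and upstream of pcn-1, which lay 886 bp from an internal start of wrt-5. Weaker peaks between 1231 and 1987 bp upstream were found for grd-6 (51.7), ptr-8 (41.5), wrt-5 (40.6), grl-22 (40.2) and grl-26 (38.3), and those of ptr-8 and grl-26 were nearest to other genes. With a window of 2000 bp upstream, 10 ligand-like genes (17.2%) and 5 patched-like genes (19.2%) were called, against 29.1% of all protein-coding genes.

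An IDR summit lay inside the gene body, introns included, of 4 ligand-like genes (6.90%) and 4 patched-like genes (15.4%), against 9.20% of all protein-coding genes. Patched-like genes are longer, with a median of 6153 bp against 2027 bp over all genes, and the part of length in these shares was not tested. Outside the promoter window, the summits inside genes were intronic in grl-3 (signal 76.3), grl-15 (49.3), grl-18 (45.4), ptr-24 (48.2) and ptr-4 (39.0). The intronic summit in ptr-13 (54.3) fell on a tRNA gene. In ptr-12 the summit (79.0) fell in coding sequence, 7549 bp from the ptr-12 start and nearest to the start of fbp-1.

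**Figure D4:**
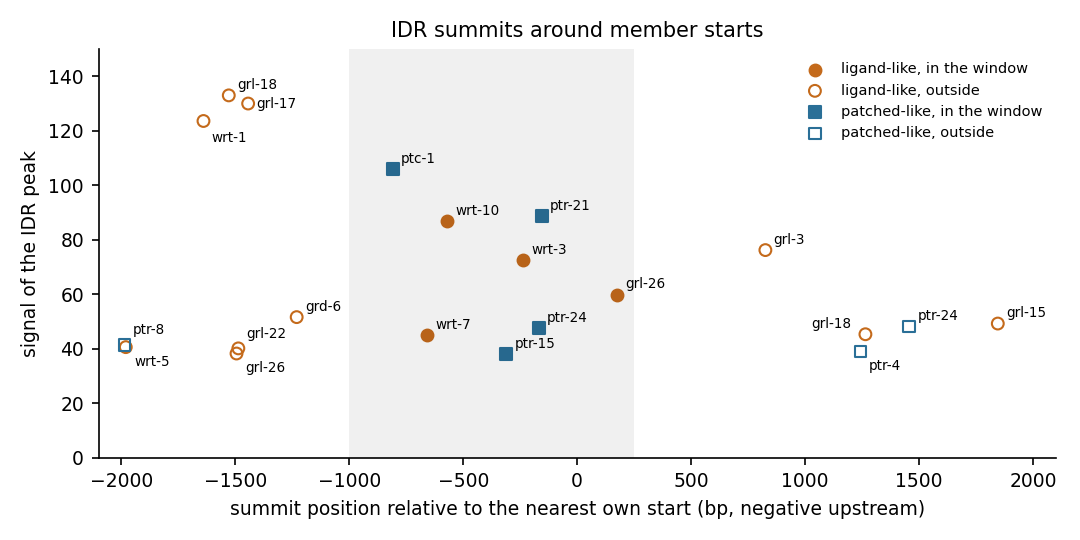
IDR summits upstream of or inside a member and within 2000 bp of its nearest start (summits past the end of a gene are not drawn), by distance to the nearest start of that gene (negative is upstream) and pooled signal; the grey band is the promoter window, filled symbols lie in it and open symbols outside, with circles for ligand-like and squares for patched-like genes. The 3 strongest summits, at grl-18, grl-17 and wrt-1, lie upstream of the band.

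Gene structure differed between the classes. The space to the next gene upstream had a median of 1071 bp in ligand-like and 5175 bp in patched-like genes, against 937 bp over all protein-coding genes. Gene length had a median of 1765 bp in ligand-like and 6153 bp in patched-like genes, against 2027 bp. Patched-like genes are thus long and stand apart, while ligand-like genes resemble the average gene. When all genes were divided into 4 groups of similar size by upstream space, the share with an IDR peak was between 20.2 and 29.5% in every group. Ligand-like genes had 1 of 15, 1 of 9, 2 of 25 and 0 of 9 called from the smallest to the largest space, and patched-like genes had 2 of 7 in the third group and 2 of 18 in the fourth. The share of ligand-like genes was below that of all genes in each group, from at most 2 called genes a group. The patched-like share was above that of all genes in the third group (23.3%) and below it in the fourth (20.2%). The part of upstream space in these shares was not tested. Members next to each other on the chromosome formed 7 pairs of 12 genes, among them grd-13, grd-3 and grd-10, and grl-29, grl-30 and grl-31. Of these 12 genes, wrt-10 alone had a peak, and it lies 15 bp from wrt-1.

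With internal starts counted, 3 of 15 other genes linked to Hedgehog-type signalling or to sterol-sensing proteins were occupied (20%), against 23.4% of all protein-coding genes. The strongest was ncr-1, which encodes a homologue of the human sterol transporter NPC1 and is patched-like in its sterol-sensing domain. Its peak had a signal of 138.8 (rank 698), with 98.9 in replicate 1 and 37.97 in replicate 2, above every promoter peak of the members. The ncr-1 summit lay inside the gene, 857 bp upstream of an internal start. lin-23, which encodes an F-box protein related to the one that acts on Ci and Gli in flies and vertebrates, had 66.9, with 51.1 in replicate 1 and 22.9 in replicate 2. kin-1, the catalytic subunit of protein kinase A, had 34.4, with 18.5 in each replicate. This peak was near the end of the IDR list (rank 7380), and its summit also lay inside the gene, 461 bp upstream of an internal start. A relaxed call alone lay at tra-1, the worm Gli homologue (33.2), at qua-1, a Hedgehog-related gene of moulting (26.3), at kin-2 (20.99) and at scp-1 (17.97). The other 8 genes, among them che-14 (Dispatched-like), daf-6 (patched-related) and ncr-2, had no pooled call.

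In a hand-picked list of 10 regulators of moulting and epidermis, chosen with earlier results of these data known, 6 or 60% were occupied, against 23.4% of all protein-coding genes. myrf-1, a membrane-bound transcription factor of moulting, had a signal of 114.6, with 63.8 in replicate 1 and 48.8 in replicate 2. lin-42, the worm Period homologue, had 64.2, with 47.1 in replicate 1 and 19.8 in replicate 2. Its summit lay inside the gene, 230 bp downstream of an internal start. The nuclear receptor genes nhr-25 and nhr-23 had 52.8 and 34.8, blmp-1 had 48.5 and the epidermal GATA factor gene elt-3 had 38.7. elt-1, lin-29 and grh-1 had a relaxed call alone, at 21.8, 16.96 and 14.7, and bed-3 had none. The list is short and its share was not tested.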

How the data were processed

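FOS-1 ChIP-seq peak lists of 2 replicates were used on build ce11, and the ce10 copies were not used. Per the manifests deposited with the lists, the authors made a relaxed list from each replicate with a control and from both pooled, and an IDR-thresholded list. The signal of each call and its −log10 q-value are as deposited. All IDR calls share 1 q-value, so signal ranked the peaks. Which aligner and peak caller were used is not given in the sources used here. Control reads were not analysed here, and depth is unknown.

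Gene models were Ensembl release 115 (WBcel235) and sequence the RefSeq WBcel235 genome. Replicate values are those of the overlapping call (at least 1 bp) of highest signal. Patterns were searched on both strands. The sequence and coordinates of the wrt-7 peak are not reported here. Distances are from the summit to the nearest start of the gene, and IDR and relaxed calls in a gene's window are those of highest signal. Named genes are all members with an IDR promoter summit, hog-1, the ptc genes, the 4 strongest relaxed calls of each class and genes with a summit in the other lists. grl-21 and the other genes named beside these were chosen after their values were seen. The members and lists were chosen with earlier results of these data known. Intervals are Wilson intervals and cover counting error only. Python 3.11.15, pandas 2.3.3 and numpy 2.4.6 were used, and window assignment was tested on simulated data. Alternatives were other windows, starts, assignments, peak sets and distances.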

Additional observations from a re-analysis of the deposited data

How the results depend on the processing

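The count of ligand-like genes depended on the window and the peak set. It was 2 with 500 bp and 10 with 2000 bp upstream, 2 with the 3723 strongest IDR peaks and 19 with all relaxed calls, and 2 without peaks that hold a short RNA gene, an alternative chosen after seeing the data. Patched-like genes were 2 with those 3723 and 15 with relaxed calls, and all protein-coding genes 2511 and 9304. From a single replicate's strongest calls, ligand-like genes were 5 and 5, patched-like genes 3 to 4 and all genes 4520 to 4641. Without replicate 1, wrt-7 stayed and grd-1 was added, and without replicate 2, wrt-7 was lost and grl-4 and grl-15 were added. The ligand-like share was below that of all genes in 9 of 9 planned settings, and the patched-like share in 8 of 9, the exception being the relaxed list. GATA sites that fitted whole within 25 bp lay at 0 ligand-like summits. Within 50 bp they lay at 1 when wrt-10, nearest to another gene, was left out. No paired analysis was possible because there is 1 group. With unknown read depth, the absence of a call does not show the absence of binding.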

Other observations

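The windows of grl-13 and of the divergent neighbours grl-29 and grl-30 hold a CRE site and the pattern GACGCAGA at the same distance. Both were noticed after the sites had been listed. The stretches are shown on the plus strand of RefSeq WBcel235 from the CRE to the reverse complement of GACGCAGA, both in capitals, to let their likeness be seen.
grl-13 (chrV:4365177-4365226): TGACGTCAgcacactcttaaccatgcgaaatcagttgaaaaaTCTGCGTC
grl-29 (chrV:3555496-3555545): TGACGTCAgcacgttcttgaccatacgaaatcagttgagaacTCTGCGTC
Of 50 positions 44 are identical. The genome holds 529 places with both patterns in this orientation and 34 bases between them, of which 140 are on chromosome V. A pooled relaxed call touches 22 of the 529 and an IDR peak 2, and neither stretch shown lies in a call. GACGCAGA by itself lay within 50 bp of 5.85% of promoter summits.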
